A study of Mus musculus with 8 samples.

Results

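The genes described here carry glucose through glycolysis to pyruvate and lactate, into the mitochondrion, into the pentose phosphate pathway and into glycogen. They were taken from a list of 40 gene symbols, matched to the symbol column of the deposited count table, and 39 of the 40 had a row among 28732 genes in all. Pygm, the muscle form of glycogen phosphorylase, was not analysed here. The rule that chose the symbols was pathway membership and used no measured value. The list was, however, made with earlier results of these data known.

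Glycolysis splits glucose into pyruvate in the cytosol and yields a little ATP. Pyruvate is then either reduced to lactate or oxidised by the pyruvate dehydrogenase complex in mitochondria, and pyruvate dehydrogenase kinases switch that complex off. In brain, astrocytes are known for strong glycolysis and for holding most of the glycogen, neurons rely more on oxidation, and glucose reaches both only after it has crossed the endothelium of blood vessels.

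RNA was sequenced from the cerebral cortex of adult mice in 2 groups of 4 libraries. Knockout mice were Cdh5-CreER::Tak1fl/fl, which carry a tamoxifen-activated Cre under the Cdh5 promoter, active in endothelium, meant to delete Tak1 (Map3k7) from endothelial cells. Control mice were Tak1fl/fl without the recombinase, and both groups carried the floxed alleles and received tamoxifen. The sample labels give postnatal day 90 and the series text 12 to 14 weeks, and controls were littermates per the series text. Below, knockouts 2 to 5 and controls 1 to 4 carry their column numbers from the count table. The labels do not say whether every library came from its own animal, and p-values therefore describe only the spread among the 8 libraries, which may be technical.

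Libraries held 13483354 to 17728963 counts assigned to genes. Map3k7 had 35.3 to 42.6 CPM (counts scaled to library size, here adjusted between libraries by TMM) in knockouts and 36.2 to 42.7 CPM in controls. Since other cells of the cortex express the gene and its whole length was counted, these values cannot check for a deletion in endothelium. The markers of cortical excitatory neurons were above 0 in all 8 libraries. Summed CPM of the marker lists overlapped between the groups for neurons, astrocytes, oligodendrocyte precursors, endothelial, mural and red blood cells. The astrocyte sum was mostly Slc1a2 (4970 to 5860 CPM in knockouts and 4580 to 5530 CPM in controls). Of the 6 excitatory neuron markers 1, Neurod6, fell (-0.68 ± 0.14 log2 ± SE, edgeR adjusted p = 0.0186). The summed level of 5 microglial markers was lower in every knockout library (113 to 230 CPM) than in every control (233 to 324 CPM), although none of the 5 passed the test described below. The 4 choroid plexus and ependyma markers had a sum of 371 to 534 CPM in knockouts, against 14.6 to 20.2 CPM in controls 1 to 3 and 186 CPM in control 4. Nearly all of that sum was Ttr (351 to 513 CPM in knockouts and 5.74 to 174 CPM in controls), which did not pass (edgeR adjusted p = 0.183). Folr1 and Clic6, at far lower levels, rose, and the ependymal gene Foxj1 had a log2 fold change of 0.04. The 5 oligodendrocyte markers, of which 1 rose, had a sum of 3050 to 3640 CPM in knockouts and 2520 to 3050 CPM in controls. Of the 4 neutrophil markers, 2 were at 0 in some library, and their sum was 1.64 CPM in knockout 4, 18.7 to 25.0 CPM in knockouts 2, 3 and 5, and 0.251 to 1.87 CPM in controls. The part of these cell types in the results was not tested, and in whole tissue fewer cells of a type and less RNA per cell cannot be told apart.

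Few genes of these pathways passed the test, and those that did were higher in knockouts. All 39 genes passed the filter on low counts. In edgeR's quasi-likelihood test, with p-values adjusted over all 15564 tested genes and a threshold of 0.05, 3 of the 39 rose (Gapdh, Ldha and Ldhb) and none fell. That is 7.69% higher, against 3.44% of all tested genes higher, 2.99% lower and 6.43% in either direction. At an unadjusted p under 0.05 in edgeR, 9 of the 39 were higher and 1 was lower, against 13.0% of all tested genes higher and 12.8% lower. DESeq2 on the same counts called 6 higher and 0 lower, against 6.21% of all tested genes higher and 5.51% lower. With limma voom 3 were higher and 0 lower, against 3.08% and 2.97% of all tested genes. Of the 39 genes, 5 passed in the authors' deposited table, all higher (Gapdh, Ldha, Ldhb, Aldoc and Pdk2), against 5.34% of the genes with an adjusted p there higher and 4.91% lower.

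The log2 fold change of knockouts over controls was above 0 for 30 of the 39 genes (76.9%), against 49.8% of all tested genes. Its median was 0.10 over the 39 genes and 0.00 over all tested genes. For 18 of the 39 the log2 fold change lay within 0.15 of 0. The 4 knockout libraries lay above the 4 controls in 7 genes (17.9%, against 8.58% of all tested genes) and below them in 2 genes (5.13%, against 7.65%), or in either direction in 9 genes, against 16.2% of all tested genes. Genes of 1 pathway are not independent of each other, and these shares describe the list only.

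**Figure D1:**
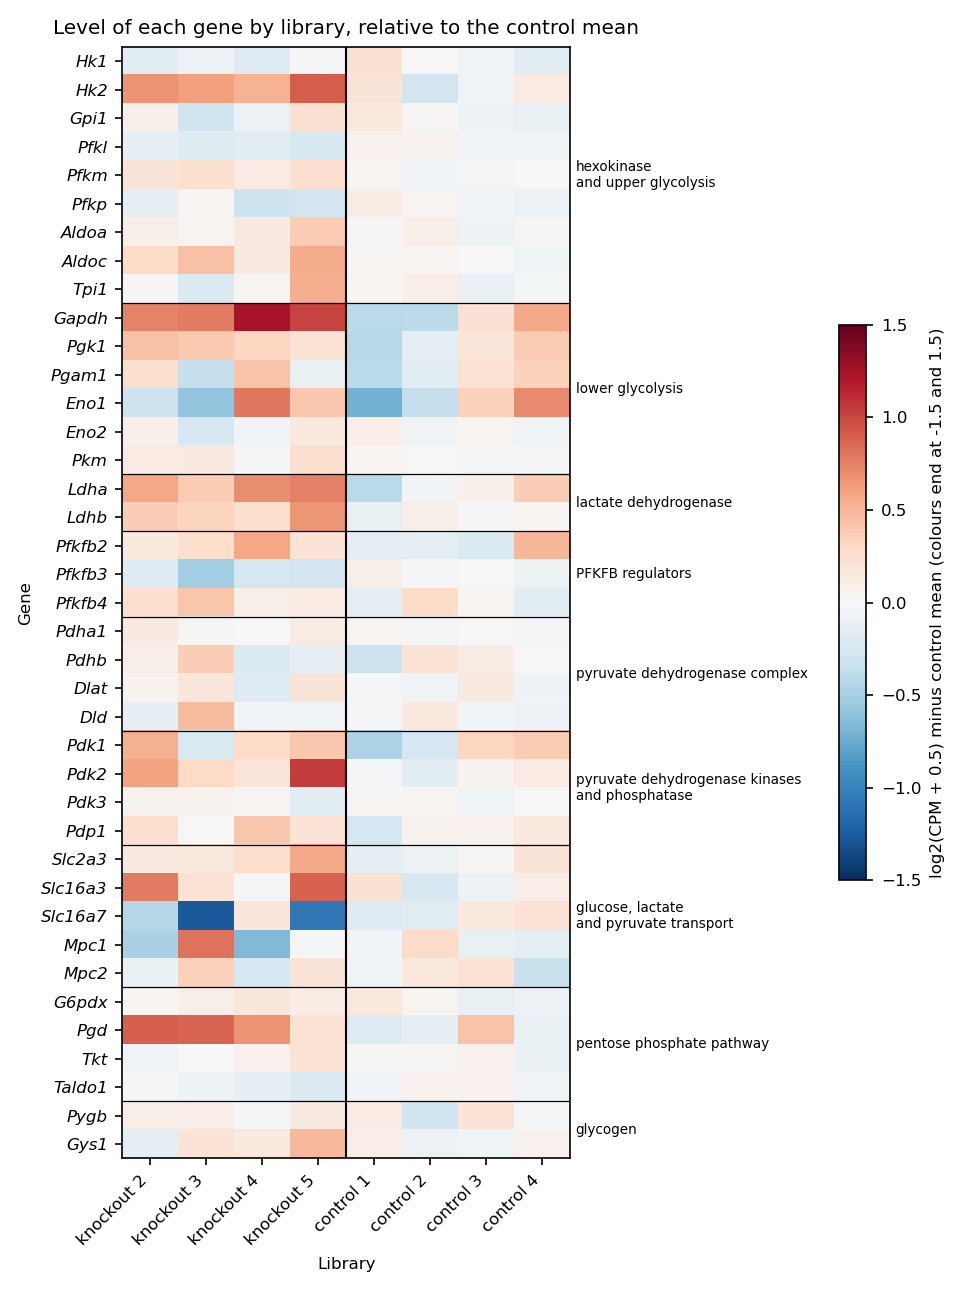
Level of 39 genes (rows, grouped by role) in the 4 knockout libraries and the 4 control libraries (columns), as log2(CPM + 0.5) minus the control mean. Among genes whose groups did not overlap, all 4 knockouts are red for Hk2, Pfkm, Aldoc, Gapdh, Ldha, Ldhb and Pdk2 and blue for Pfkl and Pfkfb3. Other genes with overlapping groups, such as Pgk1, Slc2a3 and Pgd, are also red in all 4, and knockout 5 held the highest value of the 8 libraries in 16 of the 39 genes.

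Libraries of the same group differed in these genes. Knockout 5 had the highest level of all 8 libraries in 16 of the 39 genes, and control 1 the lowest in 11. Beside this, the excitatory neuron markers summed to 4610 CPM in knockout 5, against 3220 to 3620 CPM in the other knockouts and 3150 to 3580 CPM in controls. Their part in the results was not tested. Without knockout 5, none of the 39 genes passed in edgeR, as was also so without knockout 2 or without control 1, 2 or 3. Calls over all tested genes also fell, from 535 higher and 466 lower of 15564 with every library. They were 109 and 46 of 15801 without knockout 5, and 224 and 146 of 15751 without knockout 2. Without control 1, 2 or 3, they were 208 and 117 of 15889, 93 and 35 of 15867, and 257 and 210 of 15814. Without knockout 4, 5 of the 39 rose and 1 fell, and calls over all tested genes also increased, to 6.4% higher and 6.6% lower.

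Both genes of lactate dehydrogenase, which interconverts pyruvate and lactate, were higher in knockouts. Lactate dehydrogenase is a tetramer of the A subunit, encoded by Ldha, and the B subunit, encoded by Ldhb. The A form is known for making lactate in glycolytic tissue and the B form is the main one in heart and neurons.

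Ldha (ENSMUSG00000063229, chromosome 7, 46841475 to 46855627, GRCm38) had 66.9, 57.9, 72.2 and 75.3 CPM in knockouts 2 to 5, against 33.5, 43.2, 47.0 and 57.5 CPM in controls 1 to 4. Every knockout lay above every control, but knockout 3 exceeded control 4 by little. The means were 68.0 ± 7.62 CPM in knockouts and 45.3 ± 9.94 CPM in controls (SD, n = 4 each). Ldha rose by 0.59 ± 0.15 on the log2 scale (SE, edgeR adjusted p = 0.0382).

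Ldhb (ENSMUSG00000030246, chromosome 6, 142490249 to 142507957) had 156, 153, 144 and 192 CPM in knockouts 2 to 5, against 113, 128, 120 and 125 CPM in controls 1 to 4. The groups did not overlap, and knockout 5 stood highest. Ldhb rose by 0.41 ± 0.11 on the log2 scale (SE, edgeR adjusted p = 0.0406), with means of 161 ± 21.2 CPM in knockouts and 121 ± 6.88 CPM in controls. Per kilobase of exon, Ldhb was the more abundant of the pair, at 103 CPM per kb in knockouts and 77.3 CPM per kb in controls, while Ldha stood at 20.6 and 13.7 CPM per kb in knockouts and controls. The log2 ratio of Ldha to Ldhb per kilobase within a library was -2.32 ± 0.18 in knockouts and -2.52 ± 0.27 in controls (SD, n = 4 each), and its values overlapped.

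Both calls depended on single libraries, in fits where calls over all tested genes mostly fell too. Without knockout 2 or 5 or control 1, 2 or 3, 93 to 257 of all tested genes were higher, against 535 with every library. Without control 4, 574 were higher. Where the calls were lost, log2 fold changes were 0.46 to 0.60 for Ldha and 0.31 to 0.43 for Ldhb. Ldha did not pass in edgeR without knockout 2 or 5 (adjusted p 0.0872 and 0.123) or without control 1, 2 or 3 (0.0921, 0.124 and 0.0809), and Ldhb did not pass without knockout 2 or 5 (0.0879 and 0.128) or without any 1 of the controls (0.0559 to 0.111).

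Gapdh encodes glyceraldehyde-3-phosphate dehydrogenase, the step of glycolysis that makes NADH. Gapdh (ENSMUSG00000057666, chromosome 6, 125161715 to 125166467) had 14.3, 14.6, 20.3 and 17.3 CPM in knockouts 2 to 5, against 6.19, 6.21, 9.85 and 12.6 CPM in controls 1 to 4. The groups did not overlap, and controls 1 and 2 were the lowest. Gapdh rose by 0.93 ± 0.23 on the log2 scale (SE, edgeR adjusted p = 0.0326), with means of 16.6 ± 2.79 CPM in knockouts and 8.72 ± 3.12 CPM in controls (SD, n = 4 each).

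The level of Gapdh is uncertain, because its reads can be split among near-identical copies. Its coding sequence matched 166 other genes of the table at 90% identity or more over at least 200 bases, and 153 of these are processed pseudogenes in GENCODE. These copies held 6019 counts in knockouts and 5304 in controls, and Gapdh itself held 1040 and 552 counts in knockouts and controls, so that 87.7% of the summed counts lay in the copies. Of the 166, 6 are protein-coding, among them Peli2 (92.36% identity), and all counts of each matched gene were added. The share and the sum can therefore hold reads of other genes, and how many was not tested. When the copies were added to the gene, the level was 108, 92.3, 117 and 135 CPM in knockouts 2 to 5, against 88.2 to 102 CPM in controls. The groups then overlapped through knockout 3, and the log2 fold change was 0.28 ± 0.12 (SE, edgeR adjusted p = 0.163). Gapdh alone did not pass without knockout 2 or 5 (adjusted p 0.0590 and 0.101) or without control 1, 2 or 3 (0.0905, 0.109 and 0.0647) in edgeR. Calls over all tested genes also fell in these fits.

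Copies changed the other lactate and glycolysis results less. Ldha with its 7 copies rose by 0.55 ± 0.13 (SE, edgeR adjusted p = 0.0301) and Ldhb with its 1 copy by 0.41 ± 0.11 (edgeR adjusted p = 0.0461), and in both the groups still did not overlap. Eno1, the widely expressed enolase, had 6 copies with 24.2% of the summed counts, and did not pass with them (0.17 ± 0.26, edgeR adjusted p = 0.735) or without them (0.07 ± 0.40, edgeR adjusted p = 0.935). For Pgam1 and Gpi1, copies held 34.8% and 28% of the summed counts. Their log2 fold changes were 0.06 and -0.01 alone. With copies added they were -0.08 ± 0.15 and 0.08 ± 0.12, and neither passed (edgeR adjusted p 0.779 and 0.737).

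**Figure D2:**
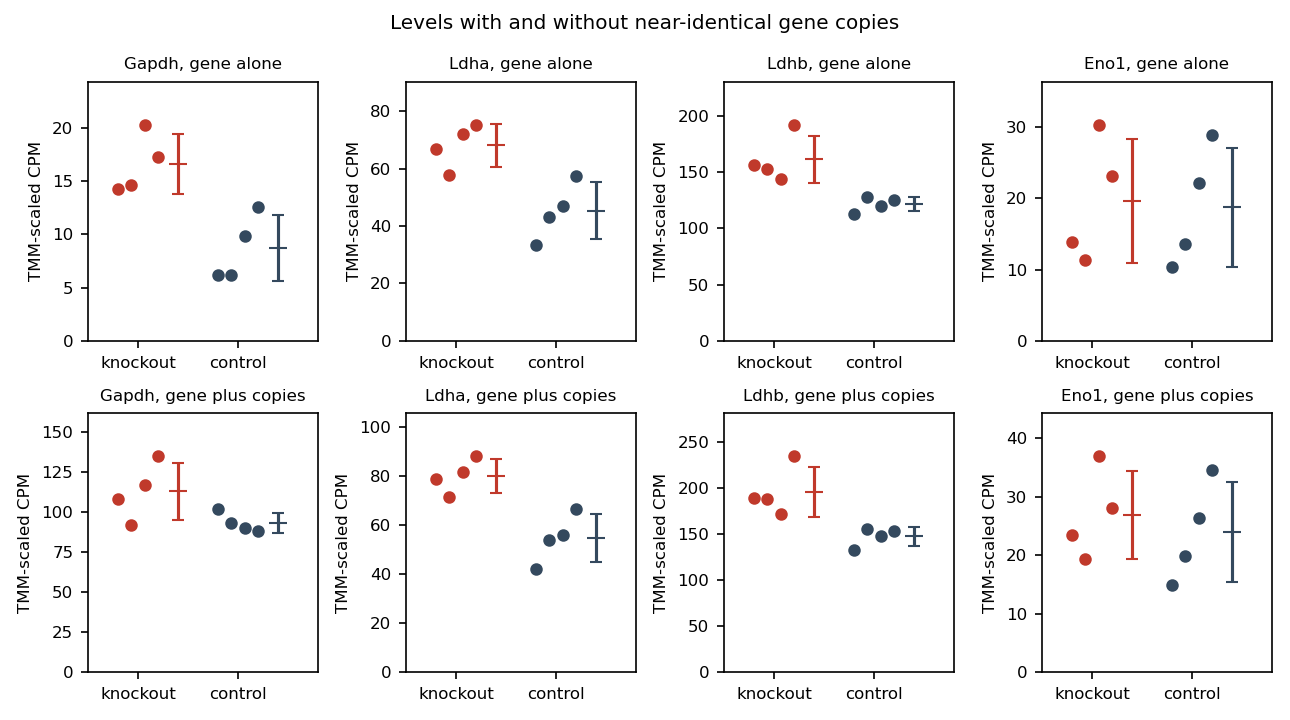
TMM-scaled CPM of Gapdh, Ldha, Ldhb and Eno1 in each knockout and control library, for the gene alone (top) and with its near-identical copies added (bottom), with the mean and SD beside the points. Knockouts and controls separate for Gapdh alone but overlap once the copies are added, while Ldha and Ldhb separate both ways.

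The promoters of the 3 genes that rose are shown because hypoxia-inducible factors are known to bind short core motifs in promoters of glycolysis genes. Each is the 300-base RefSeq window (GRCm38.p6) of 250 bases before and 50 bases after the transcript start, read 5′ to 3′ on the gene's strand, with the core letters ACGTG or GCGTG, on either strand, in capitals.
Ldha, chr7:46845554-46845853, plus strand: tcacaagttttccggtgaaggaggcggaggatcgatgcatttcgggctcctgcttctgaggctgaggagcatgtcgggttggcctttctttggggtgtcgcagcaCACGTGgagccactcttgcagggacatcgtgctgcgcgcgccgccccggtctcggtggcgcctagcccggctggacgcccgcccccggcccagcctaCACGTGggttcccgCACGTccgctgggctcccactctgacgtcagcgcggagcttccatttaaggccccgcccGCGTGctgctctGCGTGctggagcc
Ldhb, chr6:142507908-142508207, minus strand: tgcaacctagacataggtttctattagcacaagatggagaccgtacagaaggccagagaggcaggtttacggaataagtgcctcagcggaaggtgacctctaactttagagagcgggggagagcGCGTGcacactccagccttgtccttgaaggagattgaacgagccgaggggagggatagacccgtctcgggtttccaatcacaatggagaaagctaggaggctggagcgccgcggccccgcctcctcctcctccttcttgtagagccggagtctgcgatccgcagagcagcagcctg
Gapdh, chr6:125165724-125166023, minus strand: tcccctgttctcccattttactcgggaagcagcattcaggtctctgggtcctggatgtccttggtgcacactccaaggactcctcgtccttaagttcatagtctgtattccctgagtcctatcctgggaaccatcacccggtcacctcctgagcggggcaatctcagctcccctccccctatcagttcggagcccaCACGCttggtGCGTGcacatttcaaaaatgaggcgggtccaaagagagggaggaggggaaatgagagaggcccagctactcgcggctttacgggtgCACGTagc

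The Ldha window held 5 matches of ACGTG and 2 of GCGTG. Its 2 copies of the palindrome CACGTG, the letters of the E-box, each read as ACGTG on both strands and so count as 2 matches each. The Ldhb window held 1 match of GCGTG and none of ACGTG, and the Gapdh window held 1 of ACGTG and 2 of GCGTG. A second Ldha window in the table, starting at 46846832, held 2 matches of GCGTG. At least 1 of the cores was found in 40 of 54 windows of 36 of the genes described here (74.1%), against 14380 of 32851 windows of all genes (43.8%). Windows of the listed genes were also richer in G and C (median 60.8%, against 52.7% in all windows), and both cores hold a CG, so the share is a description of letters and shows no binding.

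**Figure D3:**
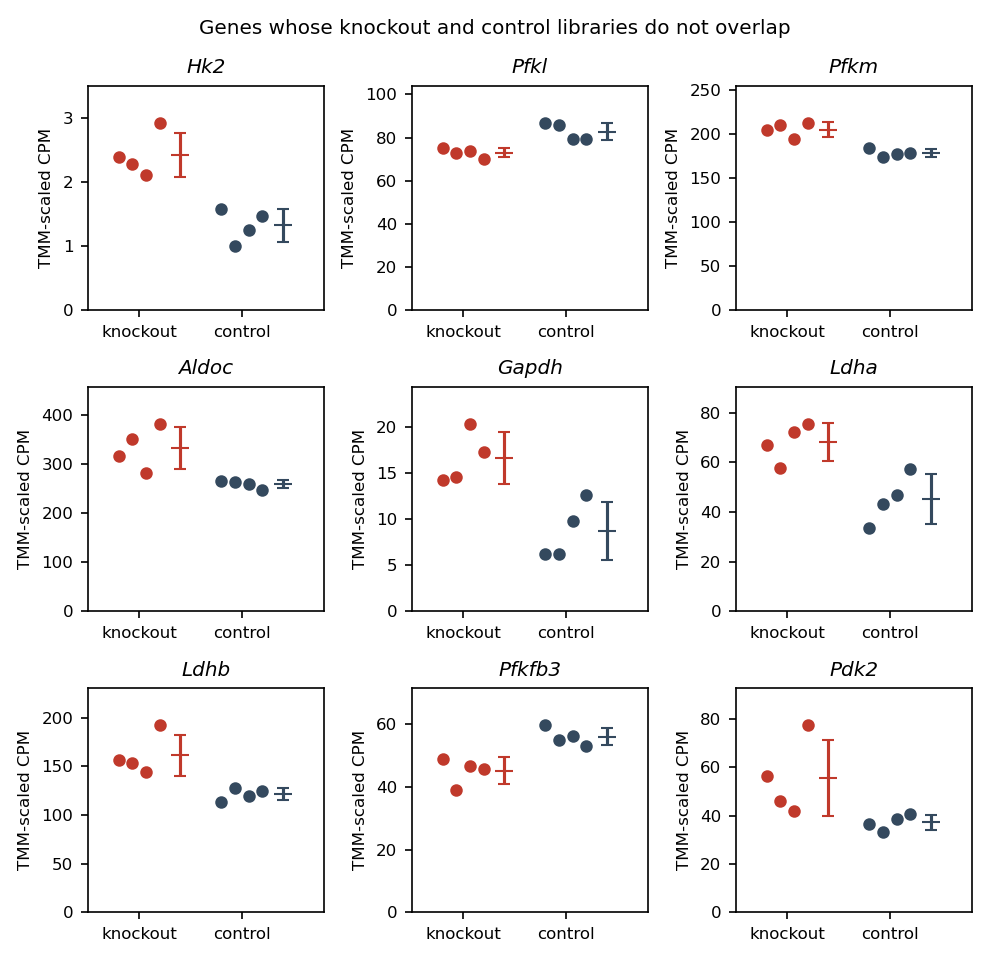
TMM-scaled CPM in each knockout library and each control library for the 9 genes whose groups did not overlap, with the mean and SD beside the points. Knockouts lie above controls for Hk2, Pfkm, Aldoc, Gapdh, Ldha, Ldhb and Pdk2, and below them for Pfkl and Pfkfb3.

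Glucose enters neurons mainly through the transporter encoded by Slc2a3, and monocarboxylates enter through Slc16a7, the high-affinity carrier known from neurons. Slc2a3 had 76.3, 77.5, 83.1 and 104 CPM in knockouts 2 to 5, against 63.1, 65.6, 70.5 and 79.3 CPM in controls 1 to 4 (0.29 ± 0.12 log2 ± SE, edgeR adjusted p = 0.156). Slc16a7 had 50.3, 28.1, 77.2 and 32.0 CPM in knockouts 2 to 5, against 59.2, 60.5, 75.5 and 79.1 CPM in controls 1 to 4 (-0.54 ± 0.30, edgeR adjusted p = 0.294). Knockout 4 lay within the control range of Slc16a7 and the other knockouts below it. Without knockout 4 Slc16a7 had a log2 fold change of -0.89 and an edgeR adjusted p of 0.0187, but that comparison was singled out after the values were seen.

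Slc16a3, the lactate exporter of glycolytic cells, stood near 1 CPM. It had 1.92, 1.14, 0.878 and 2.10 CPM in knockouts 2 to 5, against 1.15, 0.691, 0.821 and 1.01 CPM in controls 1 to 4, and the groups overlapped (0.72 ± 0.36, edgeR adjusted p = 0.233). Mpc1 and Mpc2, which form the mitochondrial pyruvate carrier, had log2 fold changes of 0.01 and 0.05 (edgeR adjusted p 0.987 and 0.884), and Mpc1 reached 6.91 CPM in knockout 3, against 2.17 to 3.66 CPM in the other knockouts. Mpc1 is uncertain, since 70.9% of the summed counts lay in its 1 near-identical copy. With that copy added, its level was 36.5 CPM in knockout 3 and 8.43 to 12.1 CPM in knockouts 2, 4 and 5, against 6.47 to 10.1 CPM in controls (0.93 ± 0.45, edgeR adjusted p = 0.243).

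Hexokinase traps glucose in the cell as glucose phosphate. Hk1, the main form in brain, had 202, 211, 197 and 220 CPM in knockouts 2 to 5, against 263, 225, 217 and 199 CPM in controls 1 to 4, and the groups overlapped (-0.12 ± 0.10, edgeR adjusted p = 0.482). Hk2, the form that insulin and hypoxia are known to induce, had 2.39, 2.28, 2.11 and 2.92 CPM in knockouts 2 to 5, against 1.58, 1.00, 1.26 and 1.48 CPM in controls 1 to 4. All knockouts lay above all controls, yet the gene did not pass (0.86 ± 0.27, edgeR adjusted p = 0.0686). These levels rest on 30 to 43 counts per knockout library and 16 to 23 per control library. The log2 ratio of Hk1 to Hk2 per kilobase was 5.91 ± 0.14 in knockouts and 6.91 ± 0.30 in controls (SD, n = 4 each), without overlap.

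Phosphofructokinase commits sugar to glycolysis and is built from muscle (Pfkm), liver (Pfkl) and platelet (Pfkp) type subunits. Pfkm had 204, 210, 194 and 212 CPM in knockouts 2 to 5, against 184, 174, 177 and 179 CPM in controls 1 to 4. Pfkl had 75.0, 72.7, 74.0 and 70.1 CPM in knockouts 2 to 5, against 86.6, 85.7, 79.6 and 79.2 CPM in controls 1 to 4. Neither overlapped between the groups and neither passed, with log2 fold changes of 0.20 ± 0.09 for Pfkm and -0.18 ± 0.09 for Pfkl (edgeR adjusted p 0.157 and 0.230). Pfkp had 180 to 230 CPM in knockouts and 211 to 242 CPM in controls (-0.17 ± 0.10, edgeR adjusted p = 0.328). Within each library the muscle subunit outweighed the others by more in knockouts. The log2 ratio of Pfkm to Pfkl per kilobase was 2.49 ± 0.09 in knockouts and 2.11 ± 0.07 in controls, and that of Pfkm to Pfkp was 2.05 ± 0.14 in knockouts and 1.68 ± 0.08 in controls (SD, n = 4 each). Knockout and control libraries did not overlap in either ratio. For Pfkm to Pfkl this follows from the levels above, since Pfkm was higher and Pfkl lower in every knockout. The ratios are given as descriptions, without a test.

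The bifunctional PFKFB enzymes make and break the sugar bisphosphate that activates phosphofructokinase, and Pfkfb3 encodes the form known for the highest kinase activity. Pfkfb3 had 48.9, 38.9, 46.6 and 45.7 CPM in knockouts 2 to 5, against 59.5, 54.9, 56.2 and 53.0 CPM in controls 1 to 4. Every knockout lay below every control, and the gene did not pass (-0.31 ± 0.11, edgeR adjusted p = 0.0877). Pfkfb2 and Pfkfb4 stood at 3.63 to 7.96 CPM in knockouts and 2.97 to 7.49 CPM in controls, with log2 fold changes of 0.30 and 0.24 (edgeR adjusted p 0.390 and 0.494). Exons of Pfkfb2 overlap those of Yod1 and of Gm29427, by up to 1262 bases for a single gene, so that its reads there cannot be assigned with certainty.

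Aldolase splits the sugar bisphosphate, and Aldoc is the form known from astrocytes. Aldoc had 316, 352, 283 and 381 CPM in knockouts 2 to 5, against 265, 264, 259 and 247 CPM in controls 1 to 4. The groups did not overlap, and controls spanned a narrow range. Its log2 fold change was 0.36 ± 0.10 with an edgeR adjusted p of 0.0525, just outside the threshold, and the authors' deposited table gives an adjusted p of 0.0277. The astrocyte marker list summed to 5880 to 6880 CPM in knockouts and 5560 to 6590 CPM in controls. Most of that sum was Slc1a2 (4970 to 5860 CPM in knockouts and 4580 to 5530 CPM in controls), so it says little about the other markers. Of the 6 genes 1, Aldh1l1, rose (0.60 ± 0.13, edgeR adjusted p = 0.0227). The part of astrocyte RNA in the level of Aldoc was not tested. Aldoa, the most abundant gene of the list per kilobase (218 CPM per kb in knockouts and 194 CPM per kb in controls), had 580 to 735 CPM in knockouts and 536 to 602 CPM in controls (0.17 ± 0.10, edgeR adjusted p = 0.313).

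Apart from Gapdh, no further gene of the remaining glycolytic steps passed. Pgk1, the X-linked phosphoglycerate kinase that makes ATP, had 27.5, 26.6, 25.3 and 23.3 CPM in knockouts 2 to 5, against 15.0, 18.1, 23.0 and 26.4 CPM in controls 1 to 4 (0.31 ± 0.17, edgeR adjusted p = 0.252). Controls spread more than knockouts here, and control 4 lay within the knockout range. The isomerases Gpi1 and Tpi1, the mutase Pgam1, the neuronal enolase Eno2 and the pyruvate kinase Pkm had log2 fold changes of -0.01 to 0.12 (edgeR adjusted p 0.414 to 0.975). Eno2 had 365 to 480 CPM in knockouts and 414 to 464 CPM in controls, and stood at 91.6 and 92.5 CPM per kb in knockouts and controls. Tpi1 reached 130 CPM in knockout 5, against 76.8 to 92.0 CPM in the other knockouts and 82.7 to 95.7 CPM in controls.

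Several genes varied widely among controls. For 9 of the 39 genes control 1 was the lowest control and control 4 the highest: Gapdh, Pgk1, Pgam1, Eno1, Ldha, Pdk1, Pdp1, Slc2a3 and Slc16a7. For Gapdh the order reversed once its near-identical copies were added, with 102, 93.5, 90 and 88.2 CPM in controls 1 to 4. With copies added, Pgk1, Pgam1, Eno1 and Ldha still had control 1 lowest and control 4 highest. Eno1 had 13.9, 11.3, 30.3 and 23.1 CPM in knockouts 2 to 5, against 10.4, 13.6, 22.2 and 28.8 CPM in controls 1 to 4, so that the highest control was 2.77 times the lowest. Pdk1 had 36.2, 21.2, 30.5 and 33.2 CPM in knockouts 2 to 5, against 18.0, 20.8, 31.4 and 32.6 CPM in controls 1 to 4. For both genes the knockout and control libraries covered nearly the same range.

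**Figure D4:**
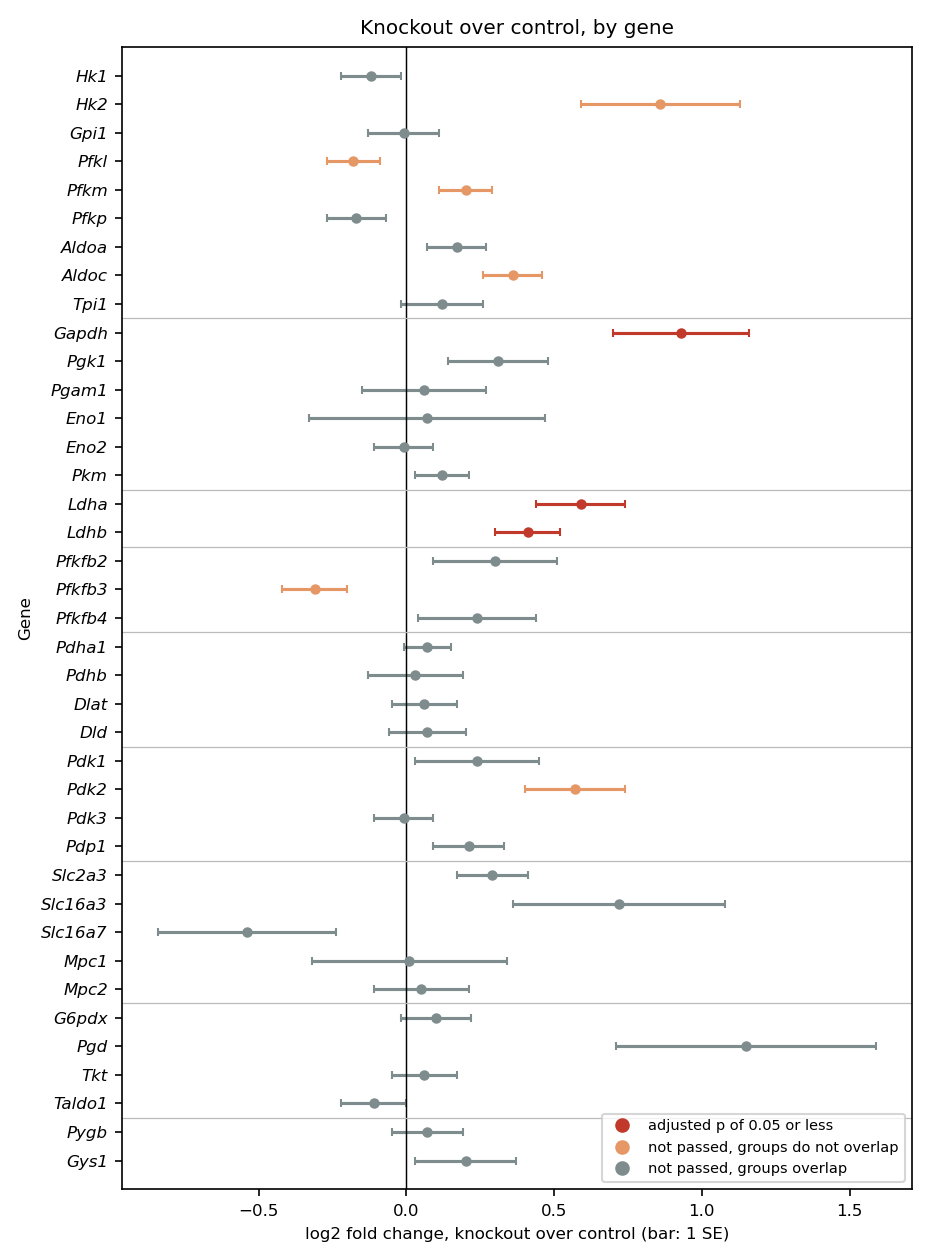
Log2 fold change of knockouts over controls for each of the 39 genes, from edgeR, with 1 SE to each side, in order of pathway step. Ldha, Ldhb and Gapdh passed, a further 6 genes did not pass although their groups did not overlap, and the 4 genes of the pyruvate dehydrogenase complex lie at 0.03 to 0.07.

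None of the 4 genes of the pyruvate dehydrogenase complex passed, and all had small differences. Pdha1 and Pdhb, which encode the decarboxylase subunits, Dlat, the acetyltransferase, and Dld, the shared dehydrogenase, had log2 fold changes of 0.03 to 0.07 with SE of 0.08 to 0.16 (edgeR adjusted p 0.679 to 0.921). For Pdhb, 25.8% of the summed counts lay in its 1 near-identical copy. With that copy added, the log2 fold change of Pdhb was -0.02 ± 0.13 (edgeR adjusted p = 0.947). Pdha1 had 221 to 243 CPM in knockouts and 218 to 227 CPM in controls. Dld stood at 112 CPM in knockout 3, above 73.8 to 77.0 CPM in the other knockouts and 75.8 to 89.1 CPM in controls.

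Regulators of the complex were more varied. Pdk2, a kinase that inactivates it, had 56.4, 45.9, 42.0 and 77.2 CPM in knockouts 2 to 5, against 36.4, 33.3, 38.6 and 40.5 CPM in controls 1 to 4. The groups did not overlap, with knockout 5 far above the others and knockout 4 close to control 4, and the gene did not pass (0.57 ± 0.17, edgeR adjusted p = 0.0626). It passed in DESeq2 on the same counts (adjusted p 0.0266) and in the authors' deposited table (0.0301). Without knockout 5 its log2 fold change was 0.37 (edgeR adjusted p = 0.167). Pdk1 and Pdk3 had log2 fold changes of 0.24 ± 0.21 and -0.01 ± 0.10 (edgeR adjusted p 0.530 and 0.975). Pdp1, the phosphatase that reactivates the complex, had 136, 114, 152 and 132 CPM in knockouts 2 to 5, against 95.1, 119, 120 and 126 CPM in controls 1 to 4, with overlap (0.21 ± 0.12, edgeR adjusted p = 0.283).

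The pentose phosphate pathway branches off after hexokinase and supplies NADPH and ribose. Its first oxidative enzyme, encoded by G6pdx, had 18.8 to 20.7 CPM in knockouts and 17.0 to 20.6 CPM in controls (0.10 ± 0.12, edgeR adjusted p = 0.648). Pgd, the next oxidative enzyme, had 1.17, 1.14, 0.936 and 0.543 CPM in knockouts 2 to 5, against 0.288, 0.314, 0.711 and 0.337 CPM in controls 1 to 4. Its log2 fold change of 1.15 ± 0.44 was the largest of the 39 genes but did not pass (edgeR adjusted p = 0.119), and it rests on 8 to 20 counts per knockout library and 4 to 13 per control library. Tkt and Taldo1, which shuffle sugar carbons back towards glycolysis, had log2 fold changes of 0.06 and -0.11 (edgeR adjusted p 0.752 and 0.547).

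Of the glycogen genes, Pygb encodes the brain form of the phosphorylase that releases glucose units and Gys1 the synthase that adds them. Pygb had 91.4 to 101 CPM in knockouts and 75.1 to 106 CPM in controls (0.07 ± 0.12, edgeR adjusted p = 0.756). Gys1 had 6.65 to 10.7 CPM in knockouts and 6.97 to 7.98 CPM in controls (0.20 ± 0.17, edgeR adjusted p = 0.497). The ranges overlapped for both genes.

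Further genes of the same pathways were taken from a separate list of 83 symbols, of which 75 had a row and 62 were tested. Of these, 3 rose and none fell (4.84% higher, against 3.44% of all tested genes higher and 2.99% lower). Slc2a1, the glucose transporter of the blood-brain barrier endothelium and of astrocytes, had 112, 79.9, 94.5 and 137 CPM in knockouts 2 to 5, against 44.7, 39.2, 44.6 and 43.2 CPM in controls 1 to 4 (1.30 ± 0.15, edgeR adjusted p = 0.00194). Pdk4, the kinase of the complex that fasting and glucocorticoids are known to induce, had 36.8, 32.3, 23.6 and 37.1 CPM in knockouts 2 to 5, against 15.2, 13.2, 10.2 and 12.7 CPM in controls 1 to 4 (1.34 ± 0.17, edgeR adjusted p = 0.00333). Slc2a12, another glucose transporter, had 3.27 to 5.03 CPM in knockouts and 1.51 to 2.83 CPM in controls (0.97 ± 0.25, edgeR adjusted p = 0.0389). Slc2a12 did not pass in edgeR without knockout 2 or 5 (adjusted p 0.0802 and 0.115) or without control 1, 2 or 3 (0.105, 0.125 and 0.0715). In these fits calls over all tested genes also fell. Slc2a1 and Pdk4 passed in all 17 alternatives tried, which none of the 39 genes above did. The 6 endothelial markers, of which 1 rose, had a sum of 216 CPM in knockout 5 and 123 to 161 CPM in knockouts 2 to 4, against 110 to 144 CPM in controls. The part of endothelial, astrocyte or choroid plexus RNA in the level of Slc2a1 was not tested.

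The genes next in order of p among these did not pass in edgeR, although Phka1, Phkg2 and Bsg passed in the authors' deposited table (adjusted p 0.037, 0.0336 and 0.0132). Phka1 and Phkg2, subunits of the phosphorylase kinase that switches on glycogen breakdown, had log2 fold changes of 0.50 ± 0.15 and 0.51 ± 0.15 (edgeR adjusted p 0.0614 and 0.0629). Bsg, the chaperone that carries lactate transporters to the membrane, had 323, 314, 224 and 299 CPM in knockouts 2 to 5, against 580, 534, 413 and 301 CPM in controls 1 to 4 (-0.66 ± 0.19, edgeR adjusted p = 0.0676). Control 4 lay within the knockout range of Bsg. Gpd1, which shuttles reducing power from glycolysis, had a log2 fold change of 0.35 ± 0.11 (edgeR adjusted p = 0.0756).

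Some ratios between partner genes of transport and of the kinases differed between the groups. The log2 ratio of Slc2a1 to Slc2a3 per kilobase was 1.34 ± 0.23 in knockouts and 0.35 ± 0.16 in controls, and that of Pdk2 to Pdk4 was 0.90 ± 0.24 in knockouts and 1.70 ± 0.30 in controls (SD, n = 4 each). The groups did not overlap in either. Within each pair both log2 fold changes were positive, at 1.30 for Slc2a1 and 0.29 for Slc2a3, and 1.34 for Pdk4 and 0.57 for Pdk2. The ratio of Slc16a1, the lactate carrier of endothelium and glia, to Slc16a7 was 1.02 ± 0.53 in knockouts and 0.22 ± 0.28 in controls, and overlapped through knockout 4. Overlap was also seen for Aldoa to Aldoc (1.10 ± 0.17 in knockouts and 1.29 ± 0.08 in controls), Eno1 to Eno2 (-4.75 ± 0.59 in knockouts and -4.84 ± 0.71 in controls) and Pfkfb3 to Pfkfb2 (2.73 ± 0.25 in knockouts and 3.37 ± 0.41 in controls).

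**Figure D5:**
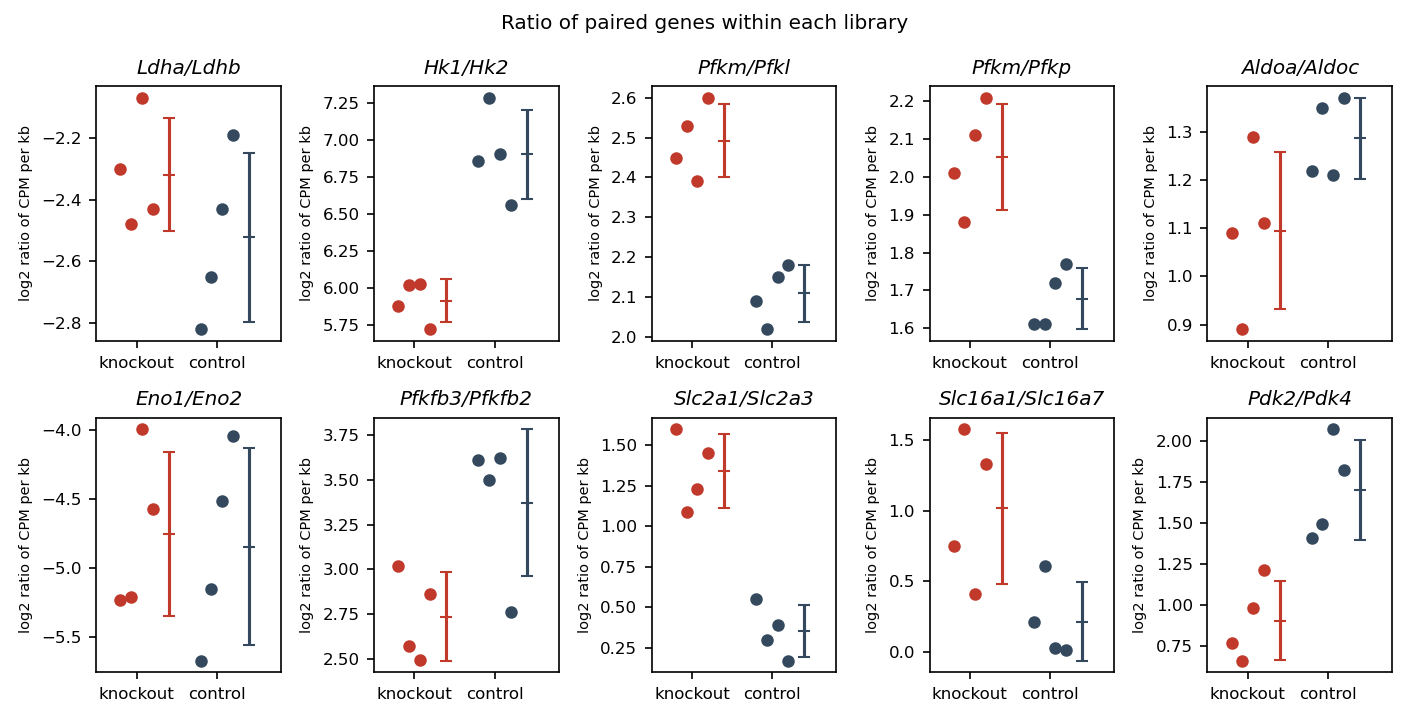
Log2 ratio of the CPM per kilobase of 2 paired genes within each knockout and each control library, with the mean and SD beside the points. Knockouts and controls separate for Hk1/Hk2, Pfkm/Pfkl, Pfkm/Pfkp, Slc2a1/Slc2a3 and Pdk2/Pdk4, and overlap for the other pairs.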

How the data were processed

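Per the submitters' processing notes, the authors' tools were FastQC, HISAT, HISAT2, featureCounts and DESeq2, with no version, and the build was GRCm38. Strand use is not given in the sources used here, and the labels name a ChIP sequencing kit for library preparation. The deposited counts are whole numbers per gene and library without normalization. The deposited signal (mean normalised count), log2 fold change with its error, score and p-value columns are the authors' DESeq2 values, and of these only the adjusted p-values are printed here, with the direction of the log2 fold change. Column numbers are not tied to sample titles, which number knockouts 5 to 8.

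After 280 repeated lines were removed, 28732 genes remained and filterByExpr kept 15564. After TMM scaling, the robust quasi-likelihood test of edgeR compared the groups without covariates, and p-values were adjusted by Benjamini-Hochberg (threshold 0.05). CPM are TMM-scaled, and errors are SD, or SE for log2 fold changes. Levels per kilobase used union exon lengths of GENCODE release M21. Near-identical copies were found with blastn 2.17.0 from the longest coding sequence. The software was Python 3.11.15 with matplotlib 3.10.9, and R 4.3.3 with DESeq2 1.42.0, edgeR 4.0.16 and limma 3.58.1. The procedure was tested on simulated counts.

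The genes and lists were chosen with earlier results of these data known. Values in every library are given for genes that passed, genes whose groups did not overlap and the 6 next by p; further pathway genes are named where they passed, with the 4 next by p and the partners of ratios. Eno1, Pdk1 and Hk1 were shown in every library after their values were seen. Alternatives were other scalings, filters, tools and thresholds, leaving out each library, a replicate block and, added after seeing the data, the addition of copies.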

Additional observations from a re-analysis of the deposited data

Results flagged for a closer look

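A single library stood apart from the other 3 of its group in 4 of 78 gene and group combinations, by the gap between the extreme library and its nearest neighbour relative to the whole range (above 0.829). About 1 in 20 such groups is picked out by chance. Dld was at 112 CPM in knockout 3, against 73.8 to 77.0 CPM in the other knockouts. Pkm was at 295 CPM in control 1, against 283 to 284 CPM in the other controls. Pfkfb2 was at 7.49 CPM in control 4, against 4.38 to 4.67 CPM in the other controls. Pgd was at 0.711 CPM in control 3, against 0.288 to 0.337 CPM in the other controls, where a level rests on 4 to 13 counts per library.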

How the results depend on the processing

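The number of the 39 genes that rose was 3 with TMM and edgeR, and became 5 with upper-quartile factors, 5 without a filter, 6 in DESeq2, 6 at an adjusted p of 0.1 and 0 with the column number as a replicate block. Leaving out 1 library gave 0 to 5 rising and 0 to 1 falling genes, and 1 fell at an adjusted p of 0.1. Their median log2 fold change was 0.101, and ran from 0.087 to 0.174 without 1 library and from 0.076 to 0.139 otherwise. Among the other pathway genes, 6 rose and 2 fell in DESeq2 and 9 rose and 3 fell at an adjusted p of 0.1, against 3 and 0, and leaving out 1 library gave 2 to 6 rising and 0 to 2 falling. Other alternatives kept these counts within 1.5 times. Calls over all genes also varied without 1 library, from 93 higher and 35 lower without control 2 to 1012 higher and 1043 lower without knockout 4. With every library they were 535 and 466 of 15564 in the main fit, and 683 and 394 with upper-quartile factors. In DESeq2 they were 967 and 857, and at an adjusted p of 0.1 they were 1108 and 1075. Without a filter they were 821 and 745 of 28732. The cause was not tested. Upper-quartile factors moved the median of all genes by 0.03. No log2 fold change that passed in either setting changed sign. Column numbers 2, 3 and 4 occur in both groups, but the sample titles share no number, and same-numbered libraries deviated from their group means with correlations of 0.01, -0.25 and 0.26. The numbers are therefore not taken as pairs, and with the block 15 genes were higher and 2 lower over all genes. A ratio of Pygb to Pygm was planned and not run. Genes below about 3 CPM, such as Pgd, Hk2 and Slc16a3, rest on 4 to 43 counts per library.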
